A study of Saccharomyces cerevisiae with 12 samples.

Results

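The 8 genes described here encode the enzymes that phosphorylate glucose and fructose in yeast (HXK1, HXK2, GLK1 and EMI2), the protein kinase Tda1, and the enzymes that make and break down fructose-2,6-bisphosphate (PFK26, PFK27 and FBP26). They were found by their systematic names in all 3 deposited tables and make up 8 of the 7079 loci listed by identifier. The group was chosen on the expression ratios of these same tables as well as on function, so the levels and ratios below are a description and carry no test.

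mRNA-selected libraries were sequenced from 12 cultures of *S. cerevisiae* in YPD, a rich glucose medium. The medium held no drug for 3 control cultures, and for 3 cultures each it held tetracycline (Tet), doxycycline (Dox) or 4-epidoxycycline (4-ED, also written 4EP in the labels) at 1.5 μg/ml. The labels give the strain as BY4741. The study's methods give R1158, a MATa derivative of it that carries the tetracycline-controlled transactivator tTA in every group, controls included. LEU2 and MET17, both deleted in this background, were listed at 0 FPKM in every group, while URA3, which BY4741 lacks and R1158 carries, was at 231 FPKM in the controls of the Tet table. HIS3, which carries the his3-1 allele in this genotype, was not at 0 but at 63.5 FPKM in those controls. Genes specific to MATa cells were at 142 (STE2), 1925 (MFA1), 4638 (MFA2), 31.5 (STE6) and 35.7 (BAR1) FPKM there. Those of MATalpha cells were not at 0 either, at 26.9 (MF(ALPHA)1), 33.5 (MF(ALPHA)2) and 4.70 (STE3) FPKM. The mating type is therefore taken from the methods and not from these levels. All cultures were harvested at a similar optical density, and the methods state that those with a tetracycline grew more slowly, so compound and growth rate cannot be told apart in any comparison below.

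Sugar enters glycolysis once a hexokinase has put a phosphate on it. Hxk2 is the main isoenzyme of cells growing on glucose and also takes part in glucose repression, the shutdown of genes for other carbon sources, together with the repressor Mig1. Hxk1 and the glucokinase Glk1 are better known from cells on other carbon sources. Tda1 phosphorylates Hxk2 on a serine near its start when glucose is scarce. Fructose-2,6-bisphosphate is a signal molecule that activates phosphofructokinase and inhibits fructose-1,6-bisphosphatase, so that it favours the breakdown of glucose over its synthesis.

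The coding starts of HXK2 (chromosome VII, 23935 to 25395, plus strand) and HXK1 (chromosome VI, 253592 to 255049, minus strand) are shown because they hold the target serine of Tda1 and show how alike the paralogs are at the level at which reads were assigned. The first 72 bases after and including the start codon were read from the R64 genome, with the first serine codon, number 15 in both, in capitals.

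HXK2: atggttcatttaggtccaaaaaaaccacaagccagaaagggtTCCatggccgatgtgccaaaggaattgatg

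HXK1: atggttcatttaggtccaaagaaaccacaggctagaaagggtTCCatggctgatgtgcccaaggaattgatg

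These stretches differ at 5 of 72 bases. Over the whole coding sequences, HXK2 and HXK1 were identical at 77.7% of 1458 aligned bases, and the longest stretch without a difference was 23 bases. The glucokinase paralogs GLK1 and EMI2 were identical at 68.7% of 1500 aligned bases, with a longest shared stretch of 15 bases. The sequencing run had 76 cycles, and none of the 76-base words in any of the 8 genes occurred a second time in the genome. A full-length read without errors therefore belonged to 1 place in the genome for every gene of the group.

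In the control cultures the group values of these genes spanned a wide range, as the plot of levels by group shows. The values are FPKM, fragments scaled for transcript length and library size, which puts genes on a common scale. The loci that Cuffdiff formed for HXK1 and GLK1 also held other annotations, given below. How fragments were divided there was not tested, so the levels and shares of HXK1 and GLK1 are less certain. Each is the authors' single value for the 3 libraries of a group. Such a value shows neither the spread between cultures nor the depth behind a single gene. The same control libraries were rescaled in each table, and the control values of the 8 genes differed between tables by ratios of 0.975 to 1.02.

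**Figure D1:**
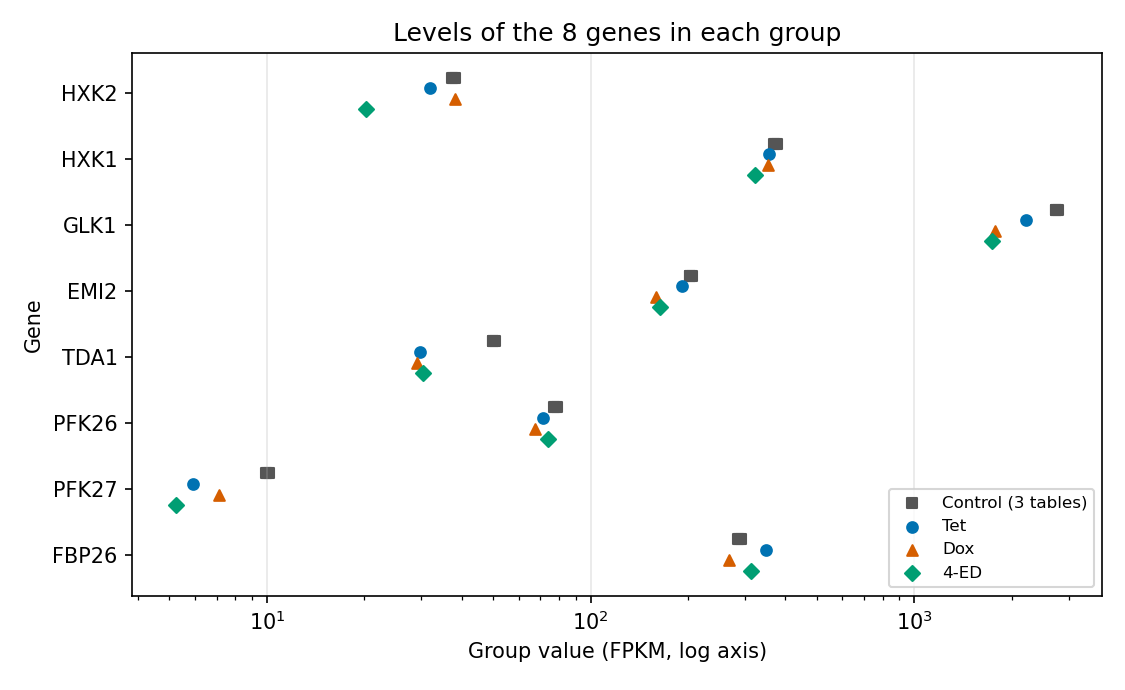
Levels of the 8 genes, as 1 FPKM value per group on a log axis, where grey squares are the control values of the 3 tables, which nearly coincide, and coloured symbols are the Tet, Dox and 4-ED values. GLK1 is the highest gene in every group and PFK27 the lowest, and the treated values of TDA1 lie close together and to the left of its control.

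Among the sugar kinases the order in the controls was GLK1, HXK1, EMI2 and HXK2, and it was the same with each compound. GLK1 (YCL040W), a glucokinase that acts on glucose but not on fructose, was listed in the controls at 2744 FPKM in the Tet table, 2788 in the Dox table and 2732 in the 4-ED table. Its level lay above that of 98.5% of the loci compared in the Tet table. HXK1 (YFR053C) was at 372, 378 and 369 FPKM in the controls of the same tables, and EMI2 (YDR516C), a putative glucokinase by its annotation, at 203, 207 and 202 FPKM. HXK2 (YGL253W) was the lowest of the sugar kinases, at 37.7, 38.3 and 37.3 FPKM. GLK1 made up 81.8% of the summed FPKM of these 4 genes in the controls of the Tet table, HXK1 11.1%, EMI2 6.05% and HXK2 1.12%. Cultures on glucose are usually described with HXK2 as the leading isoenzyme, and in these controls its value was 9.87 times below that of HXK1. The same controls held FBP1, the gene of fructose-1,6-bisphosphatase, at 1044 FPKM and the alcohol dehydrogenase gene ADH2 at 178 FPKM. Whether glucose still repressed genes in these cultures at harvest was not tested. The shares above are therefore not given as those of cells growing on glucose in general.

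To compare treatments, the log2 ratio of treated to control FPKM was computed within each table for loci with a mean of at least 1 FPKM. A ratio of at least 1.5-fold in either direction, or 0.58 on the log2 scale, was used to count genes. With Tet, TDA1 and PFK27 were lower by at least that much and none of the 8 genes was higher. Of the 6547 loci compared, 1.56% were at least 1.5-fold lower with Tet and 3.89% higher. With Dox, GLK1 and TDA1 were lower and none higher, where 3.08% of 6536 loci were lower and 1.94% higher. With 4-ED, HXK2, GLK1, TDA1 and PFK27 were lower and none higher, where 2.3% of 6559 loci were lower and 5.4% higher. Since these ratios helped to choose the group, nothing is read from 2, 2 and 4 of 8 genes against those shares. In the order Tet, Dox and 4-ED, the 8 genes had a median log2 ratio of -0.18, -0.29 and -0.48, beside 0.08, -0.03 and -0.01 for all loci compared.

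**Figure D2:**
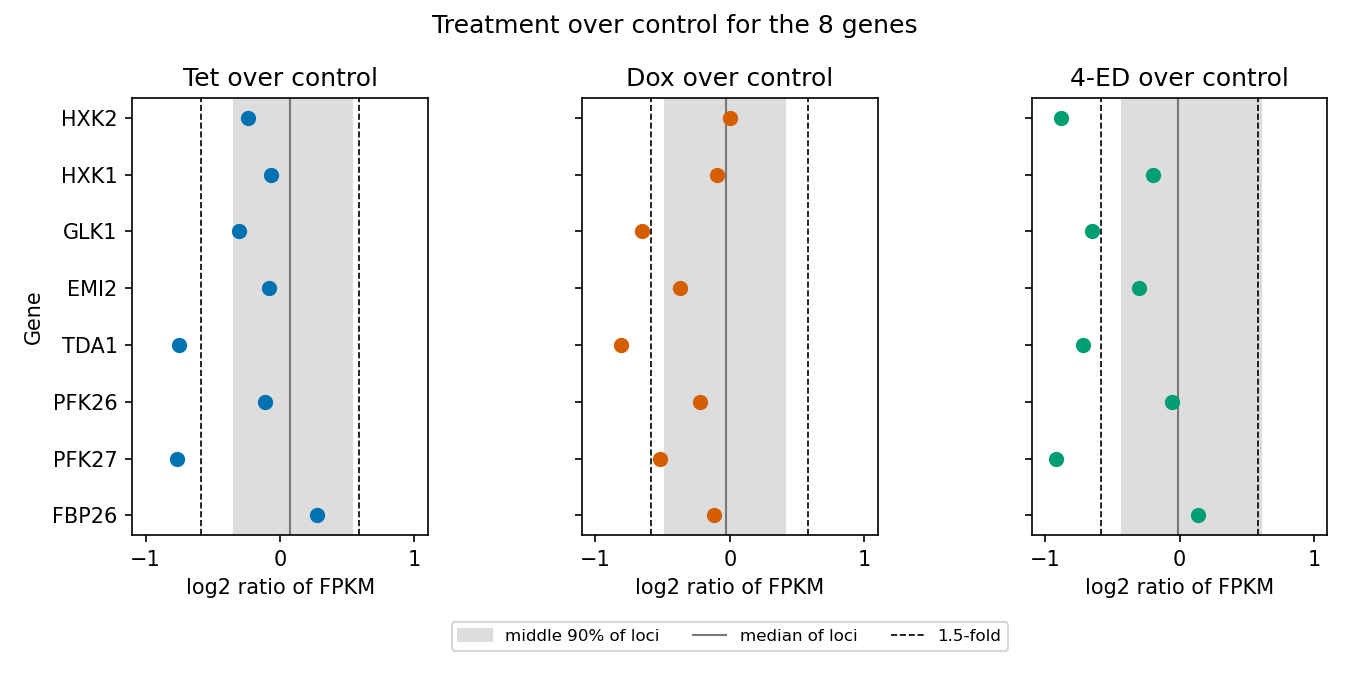
Log2 ratio of treated to control FPKM for the 8 genes, 1 panel per compound, with a grey band for the middle 90% of all loci compared, a grey line for their median and dashed lines at 1.5-fold. TDA1 lies left of the lower dashed line in all 3 panels, GLK1 with Dox and 4-ED, PFK27 with Tet and 4-ED, and HXK2 with 4-ED.

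TDA1 (YMR291W, chromosome XIII, 852630 to 854390, plus strand) was lower with every compound, by nearly the same amount. Its control values were 50.1, 50.9 and 49.8 FPKM in the Tet, Dox and 4-ED tables, and its treated values were 29.7 FPKM with Tet, 29.1 with Dox and 30.3 with 4-ED. The treated values were thus 40.7%, 42.8% and 39.1% below the controls. The log2 ratios of TDA1 lay within 0.09 of each other, the narrowest range among the 8 genes without centring. With each comparison centred on its median, they were -0.83, -0.77 and -0.70 in the order Tet, Dox and 4-ED. The centred ratios of HXK1, at -0.14, -0.06 and -0.18, then spanned a slightly narrower range than those of TDA1. Only 57 of 6547 loci had a lower ratio than TDA1 with Tet, 93 of 6536 with Dox and 83 of 6559 with 4-ED. The 3 ratios share the same control libraries, so a control value that happened to be high would lower all of them together, and no value per culture was used to check this.

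HXK2, the substrate of Tda1, did not follow TDA1 across the compounds. It stood at 31.9 FPKM with Tet against 37.7 in the controls, at 38.3 with Dox against 38.3, and at 20.2 with 4-ED against 37.3. The 4-ED value was 45.8% below its control, a log2 ratio of -0.88, and 46 of 6559 loci had a lower one. The Tet ratio was -0.24, and with Dox the log2 ratio was 0.00. The paralog HXK1 was nearer to its controls with every compound, at 355 FPKM with Tet, 354 with Dox and 322 with 4-ED, or 4.44%, 6.23% and 12.9% below them. The ratio of HXK1 to HXK2 FPKM was 9.87 in the controls of the Tet and Dox tables and 9.91 in those of the 4-ED table. It came to 11.1 for Tet, 9.26 for Dox and 15.9 for 4-ED. The locus that Cuffdiff formed for HXK1 also held YFR052C-A, which was at 1690 FPKM in the controls of the Tet table and had log2 ratios of -0.13, 0.12 and -0.16 in the order Tet, Dox and 4-ED. How fragments were divided between these annotations was not tested.

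GLK1 (chromosome III, 50838 to 52340, plus strand) was lower with all 3 compounds, least with Tet. Its value was 2221 FPKM with Tet, 1776 with Dox and 1740 with 4-ED, which put it 19.1%, 36.3% and 36.3% below the controls. In FPKM this was the largest difference among the 8 genes with each compound, and it made up most of the difference in the summed value of the sugar kinases. That sum was 3357 FPKM in the controls of the Tet table and 2800 with Tet. It was 3411 in the controls of the Dox table and 2328 with Dox, and 3341 in those of the 4-ED table and 2246 with 4-ED. GLK1 remained the leading gene, with 79.3% of the sum with Tet, 76.3% with Dox and 77.4% with 4-ED. EMI2 (chromosome IV, 1474974 to 1476476, minus strand) was also below its controls in every table, at 192 FPKM with Tet, 160 with Dox and 164 with 4-ED, and its log2 ratios of -0.09, -0.37 and -0.30 did not reach 1.5-fold. The Cuffdiff locus of GLK1 also held YCL041C, YCL042W and PDI1 (YCL043C), and YCL042W overlaps the start of GLK1 on the same strand. In the controls of the Tet table PDI1 was at 274 FPKM, YCL042W at 83.7 FPKM and YCL041C at 8.60 FPKM, all under the 2744 FPKM of GLK1.

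The genes for the enzymes of fructose-2,6-bisphosphate differed among themselves. PFK27 (YOL136C, chromosome XV, 67561 to 68754, minus strand), a 6-phosphofructo-2-kinase whose gene is known to be induced by glucose, was the weakest of the 8 genes, with control values of 10.02, 10.2 and 9.94 FPKM in the Tet, Dox and 4-ED tables. It was at 5.91 FPKM with Tet, 7.10 with Dox and 5.25 with 4-ED. The values were 41.1%, 30.3% and 47.2% below the controls, and the Dox ratio, -0.52 on the log2 scale, missed 1.5-fold. With 4-ED 40 of 6559 loci had a lower ratio than PFK27, with Tet 54 of 6547 and with Dox 263 of 6536. A mean of at least 10 FPKM would leave PFK27 out of every comparison.

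PFK26 (YIL107C, chromosome IX, 163278 to 165761, minus strand), the other 6-phosphofructo-2-kinase, was close to its controls. It was at 71.4 FPKM with Tet, 67.5 with Dox and 74.0 with 4-ED, against 77.4, 78.7 and 76.9 FPKM, and its log2 ratios were -0.12, -0.22 and -0.06. PFK26 was already 7.72 times as high as PFK27 in the controls of the Tet table. This ratio came to 12.1 for Tet, 9.52 for Dox and 14.1 for 4-ED. The summed FPKM of both kinases was 87.4 in the controls of the Tet table and 77.4 with Tet. It was 88.8 in the Dox table's controls and 74.6 with Dox, and 86.9 in the 4-ED table's controls and 79.2 with 4-ED.

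FBP26 (YJL155C, chromosome X, 129285 to 130643, minus strand), the fructose-2,6-bisphosphatase that removes the signal, was the only gene of the group above its controls with more than 1 compound. It was at 349 FPKM with Tet against 287, at 269 with Dox against 292, and at 314 with 4-ED against 286, with log2 ratios of 0.28, -0.12 and 0.14, none of which reached 1.5-fold. FBP26 was 3.29 times the summed value of PFK26 and PFK27 in the controls of each table. It came to 4.51 for Tet, 3.60 for Dox and 3.97 for 4-ED. These are ratios of transcript levels and not of enzyme or of its activity.

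The compounds were then set against each other at their shared dose, as the difference of their log2 ratios over control. Dox and 4-ED are epimers, built of the same atoms and differing in the arrangement at the ring carbon that carries the dimethylamino group. Tet and Dox differ in where a hydroxyl group sits on the ring system. The 3 pairs were compared for all 8 genes, without a test or an interval, because no value per culture was used. Since the ratios over control helped to choose the group, nothing is read from the counts or ranks of these pairs.

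Between the epimers, HXK2 showed the largest difference of the 8 genes. Its value relative to control was 1.84 times as high with Dox as with 4-ED, a log2 difference of -0.88 for 4-ED over Dox, and 30 of 6517 loci had a lower one. PFK27 was next, at -0.40. GLK1 differed by less than 0.01, and HXK1, EMI2, TDA1, PFK26 and FBP26 by between -0.11 and 0.26. HXK2 was thus the only one of the 8 genes at least 1.5-fold lower with 4-ED than with Dox and none was as much higher, where 1.66% of the 6517 loci were lower and 4.51% higher.

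4-ED and Tet also differed most at HXK2, with a log2 difference of -0.64 for 4-ED over Tet, 1.56 times lower. With each comparison centred on its median the difference was -0.56, short of 1.5-fold. The other 7 genes differed by between -0.35 and 0.06, and none was 1.5-fold higher. Of 6530 loci, 1.87% were at least 1.5-fold lower with 4-ED than with Tet and 2.3% higher. None of the 8 genes differed by 1.5-fold between Dox and Tet, where 2.36% of 6518 loci were lower with Dox and 0.721% higher. The differences for Dox over Tet ran from -0.40 for FBP26 through -0.35 for GLK1 and -0.28 for EMI2 to 0.24 for HXK2 and for PFK27. TDA1 differed by -0.05 for Dox over Tet, by 0.04 for 4-ED over Tet and by 0.09 for 4-ED over Dox. After centring, these differences of TDA1 were 0.05, 0.13 and 0.07, so the sign for Dox over Tet changed.

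**Figure D3:**
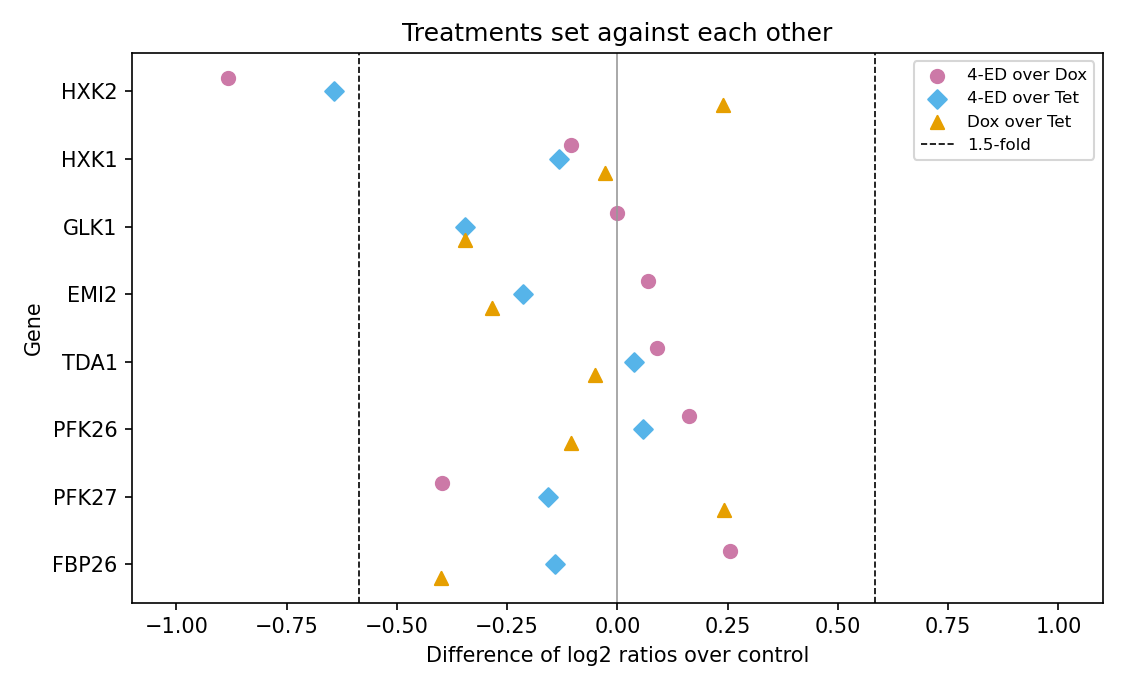
Differences between compounds for the 8 genes, each the log2 ratio over control with the first compound minus that with the second, with dashed lines at 1.5-fold. HXK2 is the only gene past a dashed line, at -0.88 for 4-ED over Dox and -0.64 for 4-ED over Tet (-0.56 and short of the line once centred on the median). The points of TDA1, HXK1 and PFK26 all lie near 0, the farthest being 0.16 for PFK26 with 4-ED over Dox.

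Sequence before the coding start was searched because Mig1 and the stress factors Msn2 and Msn4 are known to act on glucose-repressed genes, and Rgt1 on genes controlled by glucose sensing. The 500 bases before the start codon of each gene were read from the R64 genome and searched on both strands. The letters taken for Mig1 were GCGGGG, or else GTGGGG, or else CCGGGG, or else CTGGGG. The letters of the stress element, to which Msn2 and Msn4 bind, were AGGGG. Those taken for Rgt1, a repressor of hexose transporter genes, were CGGANNA. The Mig1 and stress letters share the run of G but differ in the letter before it, so that 1 run cannot count for both. Of 5939 such regions, 22.9% held a Mig1 match, 34.3% a stress element and 42.3% an Rgt1 match. Mig1 letters were found before 5 of the 8 genes, namely HXK1, GLK1, EMI2, TDA1 and PFK27, and stress elements before 6. Rgt1 letters were found before 3, with 1 match at HXK2 and 2 each at TDA1 and PFK27. HXK2 held neither Mig1 letters nor a stress element in this window.

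TDA1 held the most Mig1 matches, 3 in all. They are printed with 1 match each from GLK1 and PFK27, and with the Rgt1 match of HXK2. These are the genes that were at least 1.5-fold lower with a compound. The 2 Mig1 matches of HXK1 and the 1 of EMI2 are not printed, so the lines do not show where Mig1 letters fall in the group. Each line gives 30 bases of the strand of the gene, with the match in capitals. A match on the opposite strand appears as the reverse complement of its letters.

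TDA1, chrXIII:852148-852177, opposite strand: taaccccctcccCCCCACgctattcttcaa

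TDA1, chrXIII:852252-852281, same strand: ccgattccacggGTGGGGtgctaccaagac

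TDA1, chrXIII:852382-852411, same strand: aagaaaaagaggGCGGGGtttatcatgtac

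GLK1, chrIII:50608-50637, opposite strand: gcggcgcttgcaCCCCGCattataagtggt

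PFK27, chrXV:69180-69209, opposite strand: caggcacaagtgCCCCACcttttcacagaa

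HXK2, chrVII:23521-23550, opposite strand: ctcgcgggcagtTTTTCCGgtcgatcgaca

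The TDA1 matches began at positions -470, -366 and -236 from its start codon, the GLK1 match at -218, the PFK27 match at -443 and the HXK2 match at -402. HXK1 and EMI2 also held Mig1 letters, and HXK2 held none. Whether a match bears on any ratio given here was not tested. A match is a run of letters and not a measured binding site.

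Loci with ratios most like those of TDA1, HXK2 and PFK27 were found by the distance between their 3 log2 ratios, over 5833 loci whose mean was 10 FPKM or more in every table. The loci nearest to TDA1 were PDE2, a cyclic AMP phosphodiesterase, at a distance of 0.14, ERO1, a thiol oxidase of the endoplasmic reticulum, at 0.14, and DSF1 at 0.15. FRE7, a ferric reductase, was nearest to HXK2 at 0.15, with log2 ratios of -0.17, 0.07 and -0.78 in the order Tet, Dox and 4-ED. It was followed by YIR020C at 0.18 and by TKL1, a transketolase of the pentose phosphate pathway, at 0.21. PFK27 had YLR264C-A at 0.20, GPP2, a glycerol phosphatase, at 0.21 and YLR286W-A at 0.22.

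Values for the enzymes on which fructose-2,6-bisphosphate acts are in the plot of the wider pathway. PFK1 and PFK2, the subunits of phosphofructokinase, had log2 ratios of -0.06 and -0.14 with Tet, -0.13 and -0.20 with Dox, and -0.28 and -0.29 with 4-ED, none of which reached 1.5-fold. FBP1, fructose-1,6-bisphosphatase, was at 2166 FPKM with Tet against 1044, at 1512 with Dox against 1061, and at 2058 with 4-ED against 1038, with log2 ratios of 1.05, 0.51 and 0.99. The Dox ratio of FBP1 missed 1.5-fold.

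Of 19 genes of glycolysis and fermentation, none differed 1.5-fold from control with Tet or Dox, and 4 were lower and none higher with 4-ED, where 2.3% of all loci were lower and 5.4% higher. These were TDH1, a glyceraldehyde-3-phosphate dehydrogenase, at -0.63 on the log2 scale, the pyruvate kinase CDC19 at -0.62, the phosphoglycerate kinase PGK1 at -0.61 and the second pyruvate kinase gene PYK2 at -0.60. Centred on the 4-ED median of loci at 10 FPKM or more, -0.017, PYK2 would fall short of 1.5-fold. The list was chosen with earlier results of these data known, so nothing is read from its count. In the order Tet, Dox and 4-ED, the median of the 19 genes was -0.06, -0.20 and -0.33, beside 0.08, -0.03 and -0.01 for all loci. With 4-ED, 17 of the 19 were below their controls, with Dox 15 and with Tet 12, where 52.4%, 55.1% and 35.8% of all loci were below theirs.

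Among 25 genes of glucose sensing and repression, MIG1 was lower with Tet, at 86.7 FPKM against 131.8, and with Dox, at 86.3 against 133.9, with log2 ratios of -0.60 and -0.63. With 4-ED it was at 99.5 FPKM against 131.1, a ratio of -0.40. It was the only gene of this list lower by 1.5-fold with Tet or Dox, where 1.56% and 3.08% of all loci were, and none was lower with 4-ED. SIP4, an activator of gluconeogenic genes, was 1.5-fold higher with Tet, as were 3.89% of all loci, and not with Dox or 4-ED, with log2 ratios of 0.64, 0.40 and 0.49 in the order Tet, Dox and 4-ED. Centred on the Tet median of loci at 10 FPKM or more, 0.07, SIP4 would fall short of 1.5-fold with Tet as well. SNF1, the kinase that acts on Mig1, had ratios of -0.15, -0.34 and -0.29, and REG1, a phosphatase subunit that acts against Snf1, 0.03, -0.18 and -0.05. The medians of the 25 genes were 0.00, -0.16 and -0.05, beside 0.08, -0.03 and -0.01 for all loci. Of 14 genes whose products use hexose phosphates, FBP1 was higher with Tet and 4-ED, PMI40, which makes mannose-6-phosphate, was higher with Tet at 0.63, and none was lower, against 3.89% of all loci higher with Tet and 5.4% with 4-ED. PMI40 with Tet would also fall short of 1.5-fold after centring on that median. The medians of the 14 genes were 0.01 with Tet, -0.10 with Dox and -0.14 with 4-ED.

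**Figure D4:**
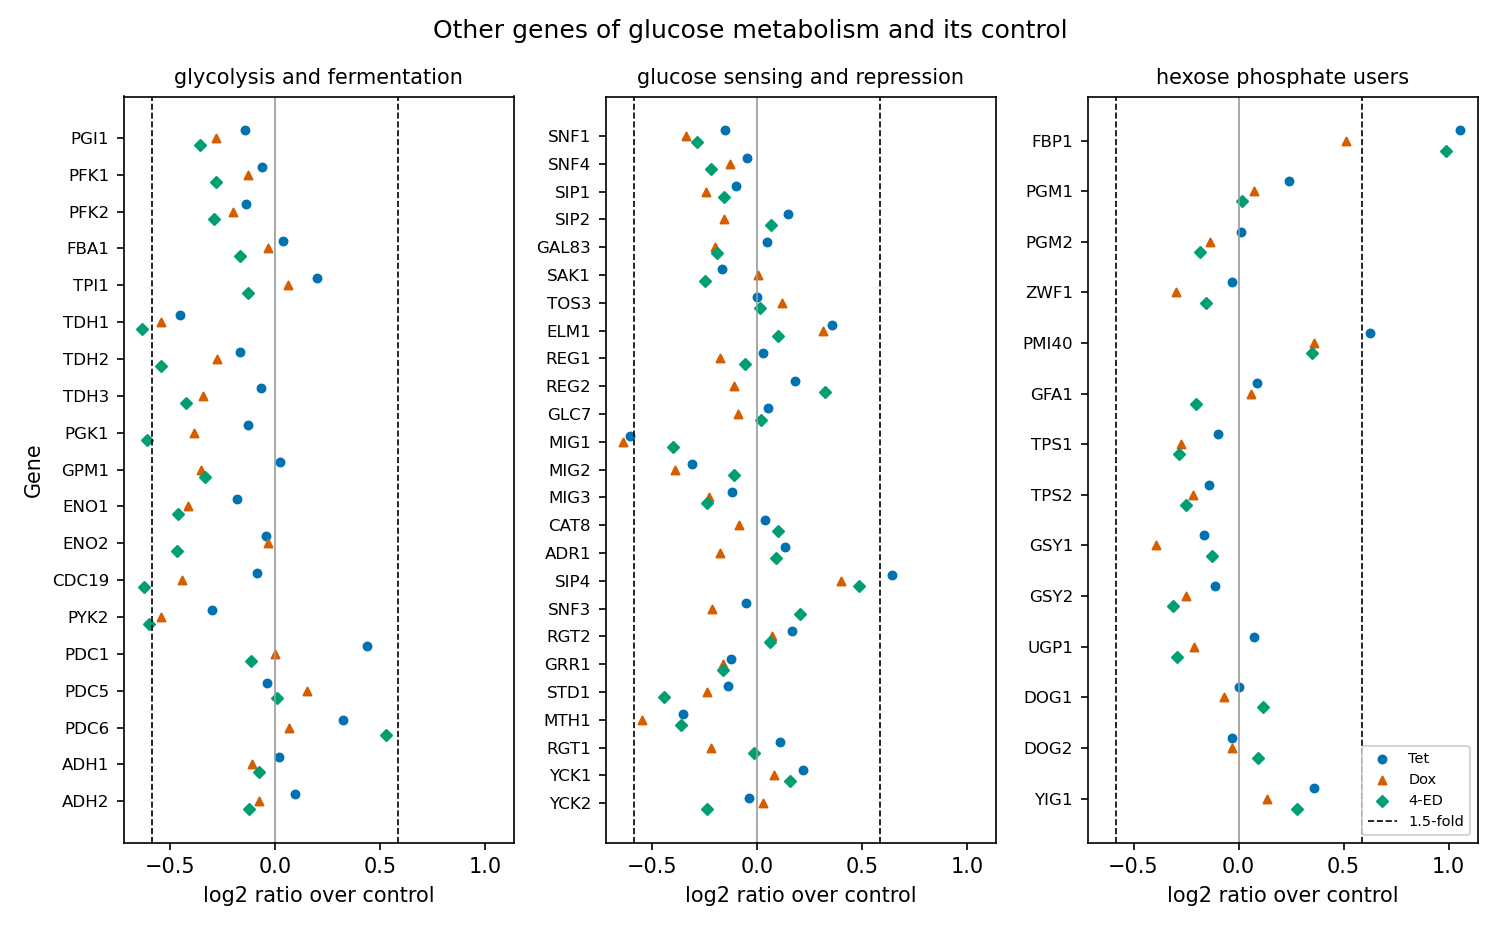
Log2 ratio over control for 19 genes of glycolysis and fermentation, 25 of glucose sensing and repression and 14 whose products use hexose phosphates, with dashed lines at 1.5-fold. The 4-ED points of TDH1, PGK1, CDC19 and PYK2 lie left of the lower line, MIG1 lies left of it with Tet and Dox, and FBP1 lies far to the right with Tet and 4-ED.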

How the data were processed

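Total RNA was extracted from 12 cultures, mRNA-selected libraries were sequenced, and groups were taken from the sample labels. Per the labels and the study's methods, the authors used Bowtie2 for mapping to R64 and Cuffdiff with the Ensembl annotation for quantification, tool versions being not given in the sources used here. The deposited FPKM values, 1 per group and table, are scaled by Cuffdiff within each comparison. The tables also hold the authors' fold changes, test statistics, p-values, q-values and calls, which were not used, and no column of per-sample values was left out. Of 7080 rows, 1 without a gene identifier was dropped.

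Log2 ratios were computed without a pseudocount for loci above 0 in both groups with a mean of at least 1 FPKM. No test was run, because group values carry no replicate error. The counting step was run on simulated data with planted 2-fold changes, as a check of the code only. It does not bear on ratios between 1.5-fold and 2-fold. The 8 genes, the lists and the thresholds were chosen with earlier results of these data known. The genes named are the 8, their 3 nearest loci for TDA1, HXK2 and PFK27, up to 4 genes per list past 1.5-fold, and PFK1, PFK2, FBP1, SNF1, REG1 and MIG1. The strain genes LEU2, MET17, HIS3 and URA3, the mating-type genes and the loci that share a Cuffdiff locus were named as checks. Alternatives were a 2-fold limit, a minimum mean of 10 FPKM or none, 1 FPKM added to each value, centring on the median, and a direct comparison of treated values after the median ratio of the controls was set to 1. Sequences came from the RefSeq copy of R64, whose 8 gene positions lie within the loci given in the tables. HXK1, HXK2, GLK1 and EMI2 were aligned pairwise with Biopython 1.88. Python 3.11.15, numpy 2.4.6, pandas 2.3.3 and matplotlib 3.10.9 were used.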

Additional observations from a re-analysis of the deposited data

How the results depend on the processing

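No paired analysis was possible because the deposited tables hold 1 value per group, and for the same reason no culture was left out in turn. At a 2-fold limit 0 of the 8 genes were lower with Tet, with Dox or with 4-ED, and 0 differed between 4-ED and Dox or between 4-ED and Tet, so every count of these 8 genes rests on ratios between 1.5-fold and 2-fold. With a minimum mean of 10 FPKM, PFK27 dropped out and 1 gene, TDA1, was lower with Tet. Centring each comparison on its median moved the ratios of the 8 genes by at most 0.10 on the log2 scale. It left 0 genes lower with 4-ED than with Tet, where the difference of HXK2 became -0.56. The range of the TDA1 ratios was then no longer the narrowest of the 8 genes, since that of HXK1 was slightly narrower. Adding 1 FPKM to each value moved a ratio by at most 0.11 and left all 48 ratios on their side of 1.5-fold, as did removing the minimum. Comparing treated values directly moved a difference by less than 0.01 and left all 24 on their side. Group values give neither read counts per gene nor a spread between cultures, so no precision is given for low values such as those of PFK27.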
